A study of Mus musculus with 16 samples.

Results

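The genes described here move secretory proteins into the endoplasmic reticulum (ER) and carry them between the ER and the Golgi. They were chosen by symbol from the deposited count table, and all 56 were present among its 21442 genes. By role they comprised 21 genes of ER translocation, 13 of the COPII coat and its exit sites, 11 of the COPI coat and its Arf GTPases, and 11 cargo receptors. Sorted cells of the distal colon, from mice aged 6 to 8 weeks, were the source of the RNA that was sequenced. All groups carried the RedMUC298trTg transgene, which marks goblet cells with mCherry. The groups were SpdefKO_GC (mCherry-positive goblet cells of SpdefKO_RedMUC298trTg mice), WT_GC (mCherry-positive goblet cells of RedMUC298trTg mice), SpdefKO_EC (mCherry-negative epithelial cells of SpdefKO_RedMUC298trTg mice) and WT_EC (mCherry-negative epithelial cells of RedMUC298trTg mice). Each held 4 libraries, and the labels call the mCherry-negative cells colonocytes. The reporter alone, without the Spdef genotype, is called WT here.

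Goblet cells fill the colon mucus layer with very large glycoproteins, chiefly the mucin Muc2, and so handle much secretory protein. Nascent secretory chains are recognised by the signal recognition particle (SRP), docked at its receptor and threaded through the Sec61 channel, where signal peptidase removes the signal peptide. COPII vesicles then bud from ER exit sites towards the Golgi, COPI vesicles return escaped ER proteins and receptors, and transmembrane cargo receptors load selected proteins into either coat. Spdef is a transcription factor of goblet cell maturation.

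Libraries held 10085637 to 17111987 gene counts, and 12915 genes, all 56 members included, passed the filter on low counts. Goblet cell markers summed to 53446 to 65924 CPM (counts per mega-count of scaled library size) in SpdefKO_GC and 48384 to 55258 CPM in WT_GC, against 525 to 569 CPM in SpdefKO_EC and 565 to 753 CPM in WT_EC. Colonocyte markers summed to 535 to 728 CPM in SpdefKO_GC and 399 to 511 CPM in WT_GC, against 8089.8 to 10172 CPM in SpdefKO_EC and 8836 to 9868 CPM in WT_EC, so the labelled cell types had their defining markers. Plasma cells also make much secretory machinery. Their 5 markers summed to at most 3.79 CPM in SpdefKO_GC and 1.93 CPM in WT_GC, with Mzb1 and Tnfrsf17 at 0 in both. The sums reached 5.21 CPM in SpdefKO_EC and 2.50 CPM in WT_EC. Only 2 of the 5 passed the filter, and in each genotype 1 was higher and 1 lower in goblet cells. Between genotypes, 1 was higher in SpdefKO_GC than in WT_GC and 1 in SpdefKO_EC than in WT_EC. The part of plasma cells in the results was not tested. Spdef, the targeted gene, was at 371 ± 62.2 CPM in SpdefKO_GC and 296 ± 17.7 CPM in WT_GC, and the difference did not pass the test (log2 0.33 ± 0.14, adjusted p = 0.116). The labels do not say which part of the gene was removed, and counts of the whole gene do not show the deletion, so SpdefKO stands throughout for libraries labelled so. The labels do not pair libraries, but libraries with adjacent numbers, 1 of each fraction in 1 genotype, deviated together from their group means in all 8 such pairs (correlation across genes 0.131 to 0.669). The tests below do not use this. Calls that change with these pairs as a block are counted below, and values are given for some of them.

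Promoter sequence is shown for 5 members that stand apart in the results. Kdelr3, Copz2 and Sec24d had the largest goblet cell excess within the cargo receptor, COPI and COPII genes, Sec23a was lower in goblet cells in both genotypes, and Sec16a had the largest genotype difference in goblet cells. Windows are RefSeq sequence of GRCm38.p6, 250 bases before the annotated start to 50 after it, written 5′ to 3′ on the strand of the gene, with matches to the motifs searched in capitals.
Kdelr3, chr15:79516158-79516457, plus strand: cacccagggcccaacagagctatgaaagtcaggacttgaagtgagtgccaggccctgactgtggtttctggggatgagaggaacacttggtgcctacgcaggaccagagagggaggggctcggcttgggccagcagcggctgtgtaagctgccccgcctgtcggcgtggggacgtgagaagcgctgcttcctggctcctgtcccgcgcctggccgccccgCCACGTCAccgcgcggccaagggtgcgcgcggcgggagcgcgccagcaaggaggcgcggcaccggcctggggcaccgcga
Sec24d, chr3:123267246-123267545, plus strand: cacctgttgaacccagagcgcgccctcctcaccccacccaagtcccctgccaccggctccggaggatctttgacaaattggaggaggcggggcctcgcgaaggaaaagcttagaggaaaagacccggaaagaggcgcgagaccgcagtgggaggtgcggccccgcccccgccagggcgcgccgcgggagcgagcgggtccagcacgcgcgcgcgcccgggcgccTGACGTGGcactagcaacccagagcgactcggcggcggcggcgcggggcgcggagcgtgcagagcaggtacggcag
Copz2, chr11:96849626-96849925, plus strand: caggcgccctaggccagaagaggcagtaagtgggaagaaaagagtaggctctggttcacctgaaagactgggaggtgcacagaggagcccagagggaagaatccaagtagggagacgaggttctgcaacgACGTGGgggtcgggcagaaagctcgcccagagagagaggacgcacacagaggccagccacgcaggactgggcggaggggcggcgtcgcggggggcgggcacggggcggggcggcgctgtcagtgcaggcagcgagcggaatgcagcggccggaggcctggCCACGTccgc
Sec23a, chr12:59011968-59012267, minus strand: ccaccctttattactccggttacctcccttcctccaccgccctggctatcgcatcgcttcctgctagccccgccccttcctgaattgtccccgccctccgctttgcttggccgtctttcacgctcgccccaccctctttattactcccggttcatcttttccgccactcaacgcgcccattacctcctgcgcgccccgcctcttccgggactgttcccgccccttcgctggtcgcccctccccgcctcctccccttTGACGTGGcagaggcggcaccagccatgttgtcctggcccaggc
Sec16a, chr2:26445167-26445466, minus strand: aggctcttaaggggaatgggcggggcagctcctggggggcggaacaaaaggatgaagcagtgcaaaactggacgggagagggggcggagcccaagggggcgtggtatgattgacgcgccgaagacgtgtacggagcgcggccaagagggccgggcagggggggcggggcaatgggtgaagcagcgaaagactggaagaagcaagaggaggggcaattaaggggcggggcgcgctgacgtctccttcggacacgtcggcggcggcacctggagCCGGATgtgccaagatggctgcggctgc
The capitals are TGACGTGG, a UPRE (unfolded protein response element), in Kdelr3 (on the reverse strand, from position -30), Sec24d (from position -26) and Sec23a (from position 7). They are the shorter ACGTGG in Copz2 (from position -120, and on the reverse strand from position 41) and CCGGAT, an ETS-type core, in Sec16a (from position 23). Positions count the start base as 1 and the base before it as -1. The Sec24d window lies at a start inside the RefSeq gene.

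In WT_GC the secretory entry and coat genes stood above WT_EC almost throughout. Of the 56 members, 52 were higher and 2 lower in WT_GC than in WT_EC, beside 31% of all tested genes higher and 30.2% lower (edgeR quasi-likelihood test, Benjamini-Hochberg adjusted p under 0.05 over all tested genes). The median log2 change of the members was 1.02, and that of all tested genes 0.05. A change of at least 2-fold upward was seen for 32 members, beside 8.96% of all tested genes. In libraries labelled SpdefKO, 51 members were higher and 3 lower in SpdefKO_GC than in SpdefKO_EC, beside 28% of all tested genes higher and 28.4% lower, with a median of 0.74 against 0.03, and 16 members were at least 2-fold higher, beside 8.83% of all tested genes. The WT_GC and WT_EC libraries did not overlap for 54 members, beside 59.4% of all tested genes, and the SpdefKO_GC and SpdefKO_EC libraries did not overlap for 50, beside 48.1%. The 51 members higher in goblet cells of SpdefKO mice were all among the 52 of WT mice. With the block of adjacent library numbers, 5 members were lower in SpdefKO_GC than in SpdefKO_EC, beside 33% of all tested genes, and the other counts of members higher and lower were the same. Together the members took 1.05 to 1.23% of gene counts in SpdefKO_GC and 1.20 to 1.28% in WT_GC, against 0.594 to 0.640% in SpdefKO_EC and 0.513 to 0.620% in WT_EC. Goblet cell RNA was purified on another column type than that of the other epithelial cells, so column and cell type cannot be told apart. In sorted bulk samples, fewer cells of a type and less RNA per cell cannot be told apart either.

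**Figure D1:**
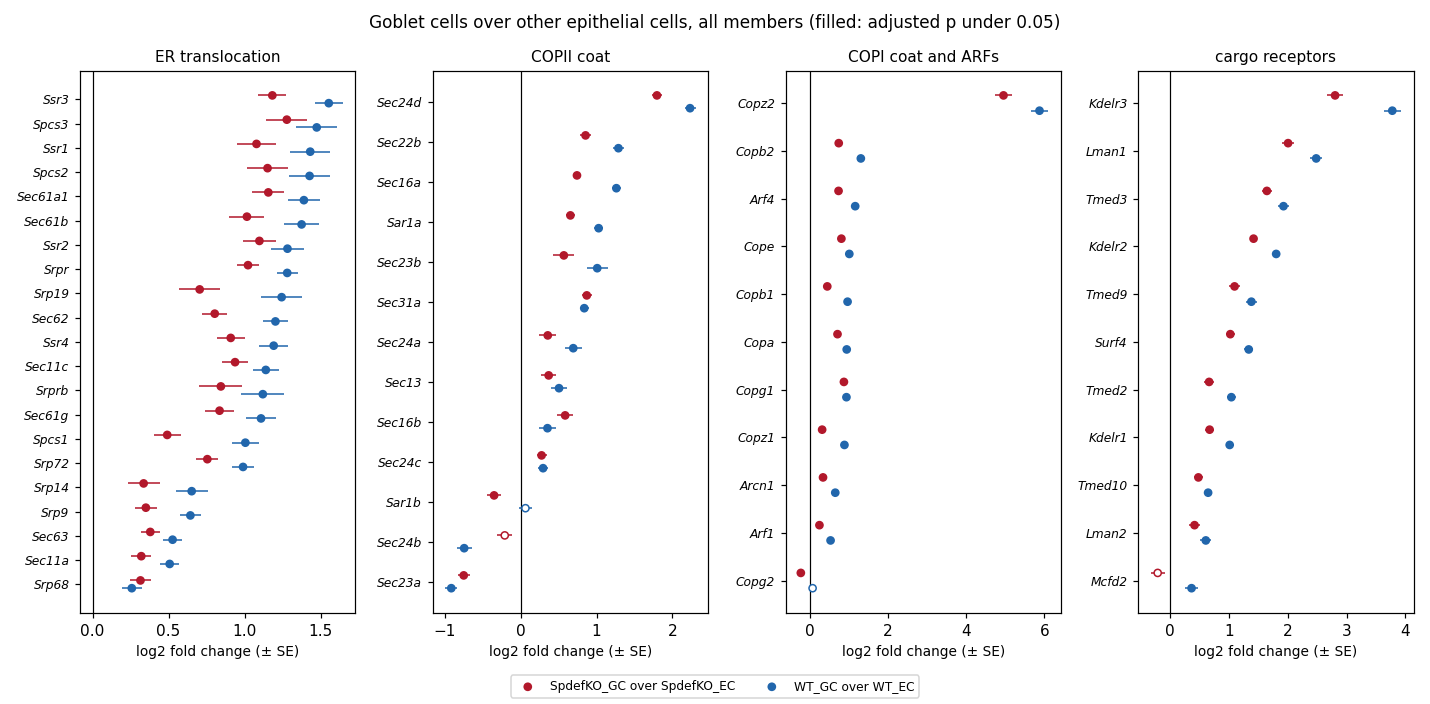
Log2 change of each of the 56 members between sorted goblet cells and the other epithelial cells (x axis), in SpdefKO mice and in WT mice, by role; error bars are approximate standard errors and filled points passed the test. Kdelr3 and Copz2 lie farthest to the right, and Sec23a lies left of 0 in both genotypes.

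All 21 translocation genes were higher in goblet cells of both genotypes, with a median log2 change of 1.19 in WT mice and 0.84 in SpdefKO mice. Ssr3, a subunit of the TRAP complex that sits beside the Sec61 channel, had the largest change in WT mice. It was at 622, 490.1, 641 and 533 CPM in SpdefKO_GC, 582, 545, 592 and 590.2 CPM in WT_GC, 259, 231, 247 and 269.9 CPM in SpdefKO_EC and 197, 176, 228 and 185 CPM in WT_EC. Every goblet cell library lay above every library of the other cells (log2 1.55 ± 0.09, adjusted p = 3.18e-11 in WT mice and 1.18 ± 0.09, adjusted p = 1.75e-09 in SpdefKO mice). Spcs3, a signal peptidase subunit, averaged 236 ± 43.5 CPM in SpdefKO_GC and 241 ± 21.4 CPM in WT_GC, against 97.4 ± 11.9 CPM in SpdefKO_EC and 86.8 ± 14.7 CPM in WT_EC (SD, n = 4 each), with a log2 change of 1.47 ± 0.14 in WT mice. Ssr1, a further TRAP subunit, changed by 1.43 ± 0.13.

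The channel subunits and the docking machinery also rose. The channel subunits Sec61a1, Sec61b and Sec61g changed by 1.39 ± 0.11, 1.38 ± 0.12 and 1.11 ± 0.10 on the log2 scale in WT mice. The SRP receptor subunits Srpr and Srprb changed by 1.28 ± 0.07 and 1.12 ± 0.14. Among the SRP proteins the range was wide: Srp19 changed by 1.24 ± 0.14 and Srp72 by 0.99 ± 0.07, but Srp9, Srp14 and Srp68 by 0.64 ± 0.07, 0.65 ± 0.11 and 0.26 ± 0.07. Srp68 and Sec11a (0.51 ± 0.06), a catalytic subunit of signal peptidase, had the smallest changes of the translocation genes. Sec11c, the other catalytic subunit, changed by 1.14 ± 0.09. Per kilobase of annotated exon, Ssr3 had the highest level of the translocation genes in every group, at 137 ± 17.2 CPM per kb in SpdefKO_GC and 138 ± 5.31 in WT_GC, against 60.3 ± 4.02 in SpdefKO_EC and 47.1 ± 5.42 in WT_EC (SD, n = 4 each).

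Of the 13 COPII genes, 10 were higher and 2 lower in WT_GC than in WT_EC, and the same numbers were higher and lower in SpdefKO_GC than in SpdefKO_EC. Sec24d, a cargo-selecting subunit of the inner coat, had the largest change. It was at 172, 170.1, 180.3 and 157 CPM in SpdefKO_GC, 169.7, 177, 177 and 160.0 CPM in WT_GC, 50.5, 46.0, 48.3 and 50.9 CPM in SpdefKO_EC and 39.7, 35.1, 38.0 and 32.5 CPM in WT_EC. The fractions did not overlap in either genotype, and WT_EC was the lowest group (log2 2.23 ± 0.07, adjusted p = 6.05e-15 in WT mice, and 1.80 ± 0.07, adjusted p = 1.1e-13 in SpdefKO mice). Sec22b, a SNARE of ER to Golgi traffic, changed by 1.29 ± 0.07 in WT mice and Sec16a, a scaffold of ER exit sites, by 1.26 ± 0.06.

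Sec23a, an inner coat subunit, went the other way. It was at 90.5, 102, 95.5 and 105 CPM in SpdefKO_GC, 86.5, 81.0, 69.3 and 86.5 CPM in WT_GC, 151, 170.0, 159 and 179.9 CPM in SpdefKO_EC and 147, 162, 150.5 and 150.4 CPM in WT_EC. All goblet cell libraries lay below all libraries of the other cells (log2 -0.91 ± 0.08, adjusted p = 6.04e-09 in WT mice, and -0.75 ± 0.08, adjusted p = 1.03e-07 in SpdefKO mice). Its paralog Sec23b was higher in goblet cells, by 1.01 ± 0.14 in WT mice and 0.57 ± 0.14 in SpdefKO mice. Per kilobase of exon, Sec23a was at 20.3 ± 1.31 and Sec23b at 16.9 ± 3.86 CPM per kb in SpdefKO_GC, and at 16.7 ± 1.67 and 19.4 ± 1.3 in WT_GC. In the other cells Sec23a was the more abundant of the pair, at 34.1 ± 2.6 against 11.4 ± 1.93 CPM per kb in SpdefKO_EC and 31.5 ± 1.33 against 9.63 ± 0.888 in WT_EC.

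Sec24b, another cargo-selecting subunit, was at 30.1, 38.5, 33.9 and 33.7 CPM in SpdefKO_GC, 24.5, 25.8, 24.6 and 30.0 CPM in WT_GC, 32.2, 41.8, 42.3 and 41.1 CPM in SpdefKO_EC and 46.8, 42.3, 40.7 and 45.4 CPM in WT_EC. It was lower in WT_GC than in WT_EC without overlap (log2 -0.74 ± 0.10, adjusted p = 2.89e-06), but the libraries of SpdefKO_GC and SpdefKO_EC overlapped (-0.21 ± 0.10, adjusted p = 0.0803, and 0.0108 with a block of adjacent library numbers). Sar1b, one of the GTPases that start COPII budding, did not pass the test in WT mice (0.06 ± 0.09, adjusted p = 0.55) and was lower in SpdefKO_GC than in SpdefKO_EC (-0.35 ± 0.09, adjusted p = 0.00228), where the libraries overlapped. Its paralog Sar1a was higher in goblet cells of both genotypes (1.03 ± 0.06 in WT mice and 0.66 ± 0.06 in SpdefKO mice). The outer coat genes Sec31a and Sec13 changed by 0.84 ± 0.06 and 0.51 ± 0.10 in WT mice, and Sec24c by 0.30 ± 0.07.

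Of the 11 COPI genes, 10 were higher in goblet cells of each genotype. Copz2, the less common form of the zeta coat subunit, had the largest change of all 56 members. It was at 26.9, 28.2, 22.9 and 22.9 CPM in SpdefKO_GC, 24.8, 25.5, 29.6 and 27.1 CPM in WT_GC, 0.638, 1.11, 0.585 and 0.939 CPM in SpdefKO_EC and 0.444, 0.237, 0.871 and 0.22 CPM in WT_EC. It was thus near the lower limit of measurement in the other cells, with 9 to 17 counts per library in SpdefKO_EC and 3 to 12 in WT_EC, and the change there rests on few counts (log2 5.87 ± 0.22, adjusted p = 5.64e-14 in WT mice, and 4.95 ± 0.20, adjusted p = 2.13e-13 in SpdefKO mice). Even in goblet cells the common form Copz1 was more abundant per length, at 31.6 ± 2.9 CPM per kb against 11.4 ± 1.24 for Copz2 in SpdefKO_GC, and 37.7 ± 1.18 against 12.1 ± 0.974 in WT_GC.

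Apart from Copz2, the COPI coat subunits were higher in goblet cells of WT mice, apart from Copg2: Copa by 0.95 ± 0.06, Copb1 by 0.97 ± 0.06, Copb2 by 1.31 ± 0.08, Cope by 1.02 ± 0.07, Copg1 by 0.94 ± 0.06, Copz1 by 0.89 ± 0.07 and Arcn1, the delta subunit, by 0.66 ± 0.07 on the log2 scale. Copg2, the other gamma subunit, did not pass the test in WT mice (0.08 ± 0.07, adjusted p = 0.344) and was lower in SpdefKO_GC than in SpdefKO_EC (-0.22 ± 0.07, adjusted p = 0.0112). Copg2 shares 912 exon bases with the opposite-strand gene Mest, Arf4 shares 527 with Pde12, and the translocation gene Spcs1 shares 252 with Glt8d1. Such an overlap was present for 9 members, and whether the counting used strand is not stated. Arf4 changed by 1.17 ± 0.07 in WT mice and Arf1, the GTPase that recruits the COPI coat, by 0.54 ± 0.07. Arf1 had the highest COPI level per length in every group, at 232 CPM per kb in SpdefKO_GC and 235 in WT_GC, against 194 in SpdefKO_EC and 162 in WT_EC.

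All 11 cargo receptors were higher in WT_GC than in WT_EC, and 10 were higher in SpdefKO_GC than in SpdefKO_EC. Kdelr3, a receptor that returns ER-resident proteins with a KDEL-type tail, was at 76.8, 72.0, 68.5 and 67.1 CPM in SpdefKO_GC, 59.7, 73.1, 67.0 and 68.4 CPM in WT_GC, 11.9, 12.5, 7.6 and 8.34 CPM in SpdefKO_EC and 4.94, 4.5, 6.02 and 4.04 CPM in WT_EC. Goblet cells of both genotypes stood well above the other cells, and SpdefKO_EC stood above WT_EC without overlap (log2 3.78 ± 0.15, adjusted p = 8.04e-14 in WT mice, and 2.80 ± 0.14, adjusted p = 2.04e-12 in SpdefKO mice). The other KDEL receptors changed less, Kdelr2 by 1.80 ± 0.07 and Kdelr1 by 1.01 ± 0.07 in WT mice. Kdelr2 remained the most abundant of the 3 per length, at 201 CPM per kb in SpdefKO_GC and 226 in WT_GC, against 75.2 in SpdefKO_EC and 64.7 in WT_EC.

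Lman1, a lectin-type receptor for glycoproteins also called ERGIC-53, was at 271, 226, 269 and 231 CPM in SpdefKO_GC, 282, 258, 310.0 and 272 CPM in WT_GC, 65.2, 59.8, 58.2 and 65.3 CPM in SpdefKO_EC and 53.0, 42.1, 61.0 and 44.3 CPM in WT_EC. The fractions did not overlap (log2 2.48 ± 0.11, adjusted p = 2.57e-13 in WT mice, and 2.00 ± 0.10, adjusted p = 5.36e-12 in SpdefKO mice). Its soluble partner Mcfd2 changed far less, by 0.36 ± 0.12 in WT mice (adjusted p = 0.0115), and did not pass the test in SpdefKO mice (-0.21 ± 0.12, adjusted p = 0.134, but 0.00113 and lower with the block). Lman2, a related lectin, changed by 0.61 ± 0.09. In the p24 family of cargo receptors, Tmed3 changed by 1.93 ± 0.09, Tmed9 by 1.38 ± 0.09, Tmed2 by 1.04 ± 0.08 and Tmed10 by 0.65 ± 0.07 in WT mice. Surf4, a receptor for soluble cargo, changed by 1.34 ± 0.07.

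**Figure D2:**
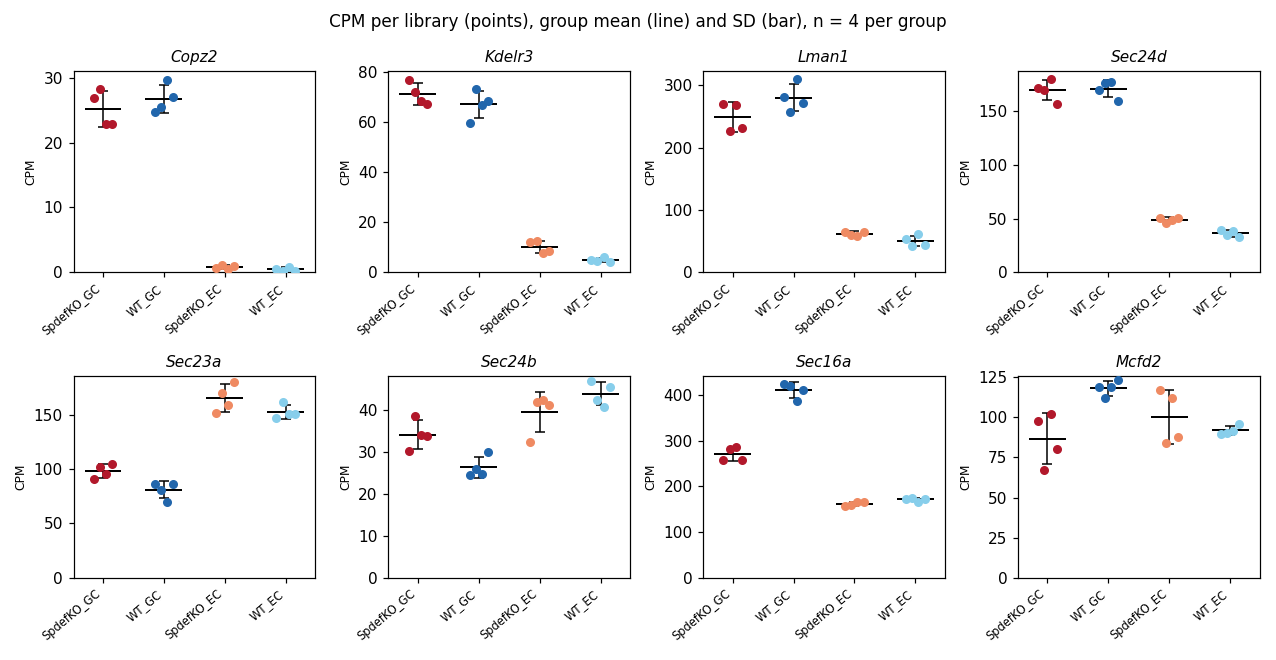
CPM in each of the 16 libraries (y axis, linear, from 0) for 8 members, with groups in the order SpdefKO_GC, WT_GC, SpdefKO_EC and WT_EC; points are libraries, horizontal lines group means and error bars the SD (n = 4 each). Kdelr3 and Copz2 are highest in the goblet cell groups and Sec23a in the other cells, and Sec16a is lower in SpdefKO_GC than in WT_GC.

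The balance within the chosen paralog and partner pairs differed between the fractions. The log2 ratio of 2 members within each library was compared between groups for 13 pairs and 4 comparisons, 52 tests in all, with an exact two-sided permutation test of 4 against 4 libraries. The smallest p this design allows is 0.0286, and the 30 tests that reached it had an adjusted p of 0.0495, so all of them stand at the edge of the threshold. The adjustment ran over all 52 tests together. Most of the 30 compared fractions, and the few genotype tests that passed depended on them for their adjusted p. All 13 pairs passed in WT mice and 12 of 13 in SpdefKO mice. The pairs were chosen with earlier results of these data known, and no share was computed for pairs of all tested genes. As single genes, 59.4% of all tested genes did not overlap between the fractions in WT mice and 48.1% in SpdefKO mice. In WT mice the ratio of Sec23a to Sec23b differed by -1.92 (goblet cells minus other cells), Sec24d to Sec24c by 1.93, Sec24a to Sec24b by 1.41 and Sar1a to Sar1b by 0.96. For the COPI pairs, Copz2 to Copz1 differed by 4.01, Copg2 to Copg1 by -0.86 and Arf4 to Arf1 by 0.63. Among receptors the difference was 2.65 for Kdelr3 to Kdelr1, 0.79 for Kdelr2 to Kdelr1, 1.88 for Lman1 to Lman2 and 0.55 for Tmed3 to Tmed9. For Sec11c to Sec11a it was 0.64. The pair that did not pass in SpdefKO mice was Sec16b to Sec16a, at -0.16 (exact permutation p = 0.343), against -0.91 in WT mice.

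**Figure D3:**
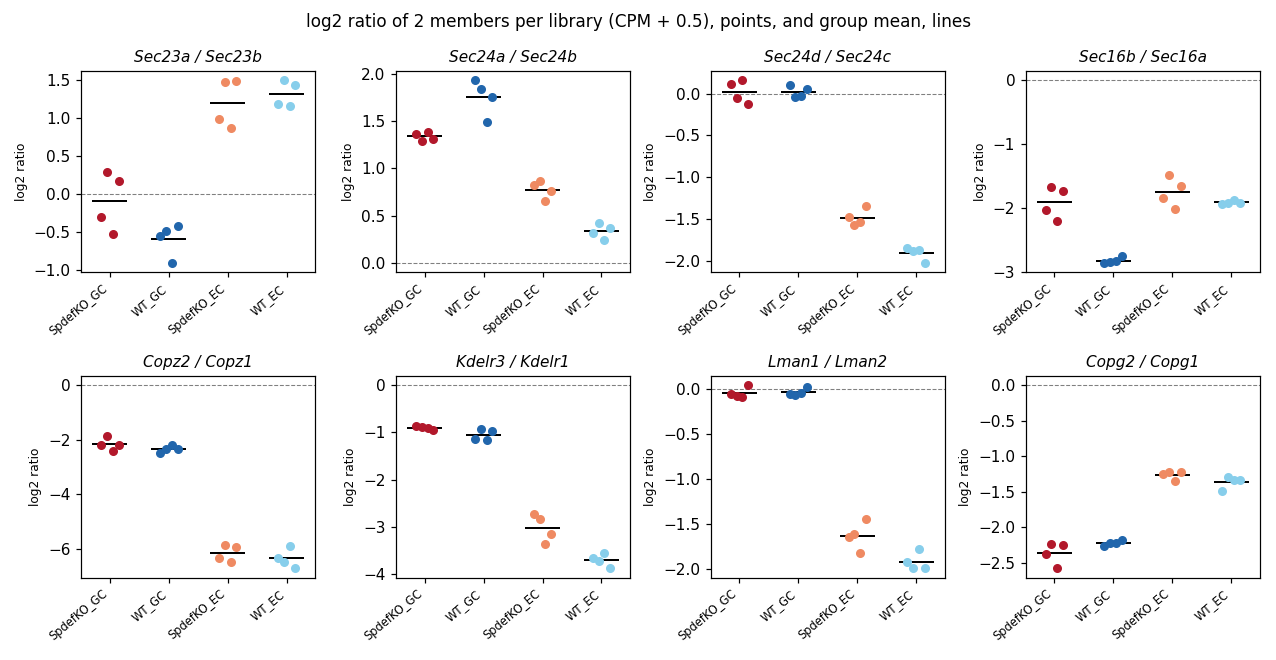
Log2 ratio of CPM + 0.5 of the paired members in each library (y axis) for 8 of the 13 pairs, with groups in the order SpdefKO_GC, WT_GC, SpdefKO_EC and WT_EC; points are libraries, solid lines group means, and the dashed line marks equal CPM. The Sec23a to Sec23b ratio is lower in goblet cells than in the other cells, and the Sec24d to Sec24c, Copz2 to Copz1 and Kdelr3 to Kdelr1 ratios are higher.

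Between goblet cells of the 2 genotypes the differences were small and mostly downward. In SpdefKO_GC, 13 members were lower (23.2% of them) and 4 higher (7.14%) than in WT_GC, beside 11% of all tested genes lower and 10.4% higher. The share lower was thus above that of all genes, and the share higher below it. The median log2 change of the members was -0.07, that of all tested genes 0.00, and 0 members were at least 2-fold higher or lower, beside 2.14% of all tested genes at least 2-fold higher. The libraries did not overlap for 21 members, beside 25.1% of all tested genes. Summed over the 56 members, SpdefKO_GC held 10991 ± 672 CPM and WT_GC 11834 ± 286 CPM (SD, n = 4 each). The SpdefKO_GC libraries were unequal for the translocation genes, which summed to 3984, 3213, 3975 and 3415 CPM in libraries 3, 5, 7 and 19, against 3878, 3692, 4061 and 3812 CPM in WT_GC. The proliferation markers summed to 1958, 1225, 1631 and 1531 CPM in the same SpdefKO_GC libraries and 962, 1077, 1134 and 798 CPM in WT_GC, with 2 of 6 markers called higher, and their part in the result was not tested. Enteroendocrine markers were also higher in SpdefKO_GC, at 193 to 287 CPM against 80.0 to 112 CPM in WT_GC, with all 8 markers called. Of 8 colonocyte markers, 5 were higher in SpdefKO_GC, with sums of 535 to 728 CPM in SpdefKO_GC and 399 to 511 CPM in WT_GC that did not overlap. Of 4 stem cell markers tested, 2 were lower in SpdefKO_GC, Ascl2 and Slc12a2, and Slc12a2, an ion transporter, made up most of the sum of that list (684 to 797 CPM in SpdefKO_GC and 1168 to 1540 CPM in WT_GC). Goblet cell markers summed to 55149, 65924, 53446 and 64299 CPM in SpdefKO_GC libraries 3, 5, 7 and 19, and 48384 to 55258 CPM in WT_GC. Of 9 such markers, 2 were higher and 2 lower in SpdefKO_GC. The part of these markers in the result was not tested.

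The largest genotype difference was that of Sec16a. It was at 258, 282, 287 and 257 CPM in SpdefKO_GC and 425, 419.9, 386 and 411 CPM in WT_GC, so every library of the knockout label lay below every WT_GC library (log2 -0.60 ± 0.06, adjusted p = 5.85e-07). In the other cells it was at 157, 159.8, 166 and 165 CPM in SpdefKO_EC and 172, 174, 166 and 172 CPM in WT_EC, a difference that did not pass the test (adjusted p = 0.385). Its paralog Sec16b went the other way, at 63.0, 88.2, 62.1 and 76.8 CPM in SpdefKO_GC and 58.1, 58.0, 54.0 and 60.4 CPM in WT_GC (log2 0.33 ± 0.11, adjusted p = 0.0371). The libraries of Sec16b did not overlap, but those of SpdefKO_GC were spread widely. The ratio of Sec16b to Sec16a was 0.91 higher in SpdefKO_GC (log2, exact permutation adjusted p = 0.0495 over all 52 pair tests). That adjusted p depended on the many fraction tests in the same adjustment, and the genotype tests were not adjusted alone. Of the 13 pairs, the other that passed between goblet cells was Sec24a to Sec24b, at -0.41.

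Mcfd2 had the next largest fall, with 97.6, 67.2, 102 and 80.2 CPM in SpdefKO_GC and 119, 112, 119 and 123 CPM in WT_GC, 2 of the SpdefKO_GC libraries lying well below the others (log2 -0.45 ± 0.12, adjusted p = 0.011). Lman1, its partner, differed by -0.17 ± 0.10 and did not pass the test (adjusted p = 0.236). Tmed2 was the other lower cargo receptor (-0.26 ± 0.08). Of the COPII genes, Sar1b (-0.31 ± 0.09) and Sec22b (-0.25 ± 0.07) were lower beside Sec16a. Sec24b was higher (0.38 ± 0.10, adjusted p = 0.0116), with no overlap in the libraries given above, and so was Sec23a (0.28 ± 0.08, adjusted p = 0.0155). Both were lower in WT_GC than in WT_EC.

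Of the COPI genes, 4 were lower in SpdefKO_GC and none higher. Copb1 was at 344, 324, 347 and 331 CPM in SpdefKO_GC and 387, 414, 418 and 412 CPM in WT_GC, without overlap (log2 -0.28 ± 0.06, adjusted p = 0.00206). Copb2 (-0.27 ± 0.08), Copz1 (-0.25 ± 0.07) and Arf4 (-0.23 ± 0.07) were the others. Of the translocation genes, Ssr4 (-0.29 ± 0.09), Spcs1 (-0.29 ± 0.09), Sec62 (-0.27 ± 0.08), which helps chains through the channel, and Srpr (-0.20 ± 0.07) were lower, and Srp68 (0.21 ± 0.07) was higher. These calls were fragile: 4 of the 17, those of Sec16a, Mcfd2, Copb1 and Sec24b, stayed past the threshold when each library was left out in turn, and the number of lower members ran from 4 to 12. It was 4 without SpdefKO_GC library 5 or 19, 5 without WT_GC library 18 and 7 without WT_GC library 11 or 13. The number of higher members was 2 without SpdefKO_GC library 5 or WT_GC library 9 and 1 without WT_GC library 13.

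In the mCherry-negative cells 14 members were higher in SpdefKO_EC than in WT_EC, 0 were lower and 42 did not pass the test, beside 6.09% of all tested genes higher and 6.54% lower. At an unadjusted p under 0.05, 31 members differed, beside 28.1% of all tested genes, and 53 of the 56 had a positive change, beside 50.8% of all tested genes. The limma-voom alternative also gave 14 and 0, and DESeq2 gave 17 and 0. At least 2-fold higher was 1 member, beside 0.782% of all tested genes. The median log2 change was 0.20, against 0.01 for all tested genes. That member was Kdelr3, 2.08-fold higher by the values given above (log2 1.06 ± 0.16, adjusted p = 0.000285). Sec24d followed (0.43 ± 0.07, adjusted p = 0.000902), with no overlap between its groups. Arcn1 was at 340.1, 284, 326 and 354 CPM in SpdefKO_EC and 247, 244, 273 and 229.6 CPM in WT_EC, also without overlap (0.39 ± 0.07, adjusted p = 0.00198). Markers of other cell types differed between the same groups. Of 5 tuft cell markers tested, 4 were lower in SpdefKO_EC (summed level of the list 8.76 to 15.9 CPM in SpdefKO_EC and 37.9 to 73.2 CPM in WT_EC), as were 4 of 8 enteroendocrine markers (232 to 379 CPM in SpdefKO_EC and 523 to 694 CPM in WT_EC) and 4 of 9 goblet cell markers. Of 6 proliferation markers, 2 were higher in SpdefKO_EC (919 to 1566 CPM in SpdefKO_EC and 671 to 1023 CPM in WT_EC). Of 8 colonocyte markers, 2 were higher and 2 lower. The part of these markers in the result was not tested.

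COPI genes made up 6 of the 14: beside Arcn1 these were Copz1 (0.31 ± 0.07), Copb2 (0.30 ± 0.08), Arf1 (0.26 ± 0.07), Copb1 (0.24 ± 0.06) and Copg2 (0.24 ± 0.07). The cargo receptors were Kdelr3, Kdelr1 (0.28 ± 0.07), Surf4 (0.27 ± 0.07) and Kdelr2 (0.22 ± 0.07), so all 3 KDEL receptors were higher. Sar1a (0.22 ± 0.06) was the other COPII gene beside Sec24d, and Ssr3 (0.36 ± 0.09) and Srp72 (0.25 ± 0.07) were the translocation genes. Of these calls, those of Kdelr3, Sec24d, Arcn1 and Copz1 passed under each alternative tried except a bound of 1.5-fold. The count fell to 7 without SpdefKO_EC library 4, 6 without WT_EC library 12 and 5 without WT_EC library 17. It was 5 when libraries were scaled by total gene counts.

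**Figure D4:**
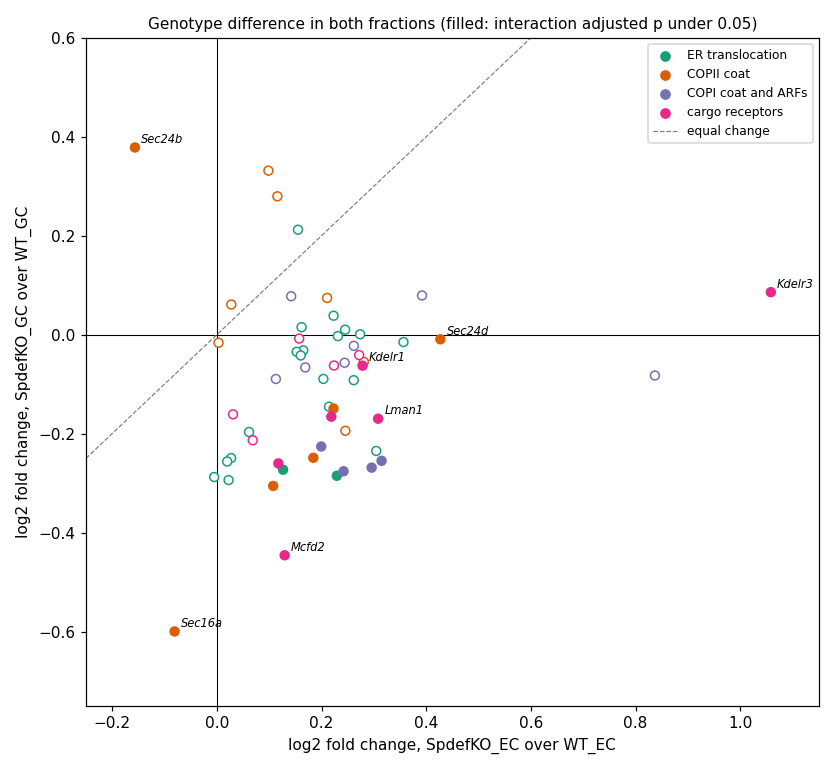
Log2 change between SpdefKO and WT libraries of each member in goblet cells (y axis) and in the other epithelial cells (x axis), by role; filled points passed the test of the interaction, the dashed line marks equal change and labels name 7 of the members called in the interaction. Most points lie below the line, with Kdelr3 at the far right, Sec16a and Mcfd2 at the bottom and Sec24b above the line.

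The genotype difference itself was compared between the fractions with the interaction, the difference in goblet cells minus that in the other cells. It was called negative for 17 members and positive for 1, beside 4.65% of all tested genes negative and 4.88% positive, with a median of -0.30 against -0.02. A negative value also means that the log2 change of goblet cells over the other cells was lower in SpdefKO mice than in WT mice. For Sar1b that change was 0.06 in WT mice and -0.35 in SpdefKO mice, and for Mcfd2 0.36 and -0.21. For the others of the 17 the goblet cell excess was smaller in SpdefKO mice. Kdelr3 had the largest negative value (-0.97 ± 0.20, adjusted p = 0.00432). Mcfd2 (-0.58 ± 0.17), Copz1 (-0.57 ± 0.11), Copb2 (-0.56 ± 0.11), Copb1 (-0.52 ± 0.08, adjusted p = 0.000464), Sec16a (-0.52 ± 0.08, adjusted p = 0.000467) and Spcs1 (-0.51 ± 0.13) followed. The members called negative differed in which fraction had a call, and a missing call does not mean that there was no difference. For Sec16a, Mcfd2, Spcs1, Sec22b, Arf4, Sar1b, Sec62 and Tmed2 the goblet cells were lower and the other cells showed no call. For Kdelr3, Sec24d (-0.44 ± 0.10), Sar1a (-0.37 ± 0.09), Kdelr1 (-0.34 ± 0.10) and Kdelr2 (-0.38 ± 0.09) the other cells were higher and the goblet cells showed no call. For Copb1, Copb2 and Copz1 both were called, in opposite directions. Lman1 was called in neither fraction. The remaining negative values were those of Lman1 (-0.48 ± 0.14), Sec22b (-0.43 ± 0.10), Arf4 (-0.43 ± 0.09), Sar1b (-0.41 ± 0.12), Sec62 (-0.40 ± 0.12) and Tmed2 (-0.38 ± 0.11). Sec24b was the positive one (0.53 ± 0.14, adjusted p = 0.0217). With the block of adjacent library numbers, an alternative chosen after the data were seen, 38 members were called negative and 2 positive, beside 13% and 12.8% of all tested genes, and the 18 calls above were all among them. The negative ones were then 14 of 21 translocation genes, 7 of 13 COPII genes, 8 of 11 COPI genes and 9 of 11 cargo receptors. Among those added, Sec23b was at -0.45 ± 0.08 (edgeR with the block, adjusted p = 0.000149), Srp19 at -0.54 ± 0.14 (adjusted p = 0.00756), Ssr3 at -0.38 ± 0.09 (adjusted p = 0.00425) and Sec61b at -0.35 ± 0.08 (adjusted p = 0.00209), and Sec16b was the other positive one (0.23 ± 0.08, adjusted p = 0.0351). Without the block, the number of negative calls was 11 without WT_GC library 13, SpdefKO_EC library 4, WT_EC library 10 or WT_EC library 17. Cell type markers also had interaction calls without the block. Positive calls were made for 8 of 8 enteroendocrine, 4 of 5 tuft, 4 of 8 colonocyte and 4 of 9 goblet cell markers. Negative calls were made for 1 goblet cell marker and 1 of 4 stem cell markers, and 0 of 6 proliferation markers were called. The part of these markers in the result was not tested.

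**Figure D5:**
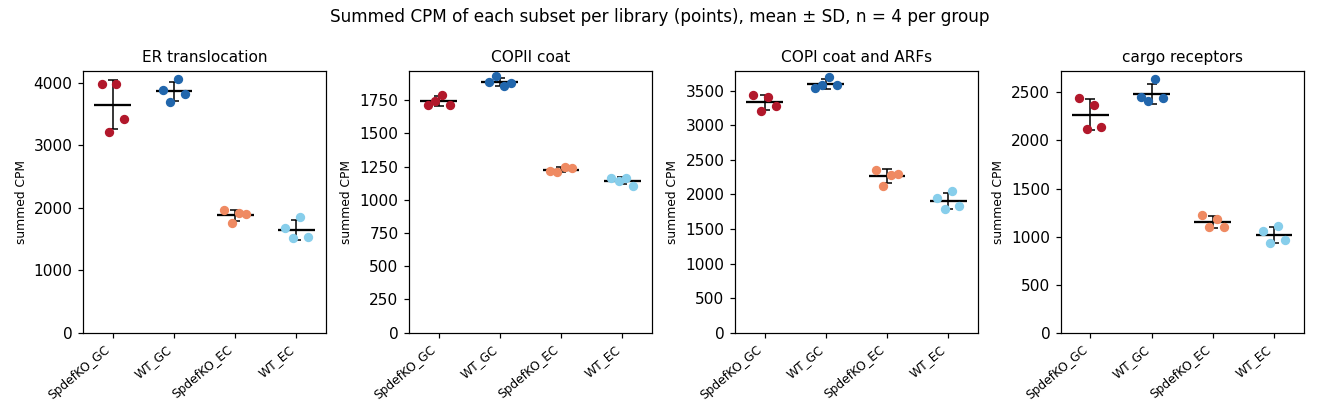
Summed CPM of the translocation, COPII, COPI and cargo receptor genes in each library (points, y axis), with group means (lines) and SD (error bars, n = 4 each), for SpdefKO_GC, WT_GC, SpdefKO_EC and WT_EC. Each sum is higher in goblet cells of either genotype than in the other cells, and the translocation sums of SpdefKO_GC are spread from 3213 to 3984 CPM.

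As groups, the 4 roles kept their order of change in goblet cells. The mean summed level of the cargo receptors was 2.45 times as high in WT_GC as in WT_EC, that of translocation genes 2.35 times, that of COPI genes 1.89 times and that of COPII genes 1.65 times. In SpdefKO mice the same ratios of goblet cells to other cells were 1.97 for cargo receptors, 1.94 for translocation, 1.47 for COPI and 1.42 for COPII. The COPII sums were 1740.6 ± 37.6 CPM in SpdefKO_GC and 1889 ± 30.3 CPM in WT_GC, against 1228 ± 19.3 CPM in SpdefKO_EC and 1145 ± 27.3 CPM in WT_EC (SD, n = 4 each).

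Other genes of the same pathways that were not members were measured as a second list of 89, of which 88 were tested. They were translocation partners and glycosylation enzymes, vesicle tethers and SNAREs, Arf regulators and other cargo receptors. In WT_GC, 61 were higher and 9 lower than in WT_EC, beside 31% and 30.2% of all tested genes. In SpdefKO_GC 51 were higher and 12 lower than in SpdefKO_EC, beside 28% and 28.4%. In SpdefKO_GC, 19 were lower and 1 higher than in WT_GC, beside 11% and 10.4%. The 4 lower by at least 0.5 on the log2 scale were Ergic1, a protein that cycles between the ER and the Golgi, Gorasp1, a Golgi stacking protein, Preb, the exchange factor that activates Sar1, and Tusc3, a subunit of oligosaccharyltransferase. Ergic1 was at 104, 98.3, 100.5 and 102 CPM in SpdefKO_GC and 228, 220.4, 248 and 214 CPM in WT_GC, far apart (log2 -1.17 ± 0.08, adjusted p = 7.68e-09). Gorasp1 changed by -0.70 ± 0.09, Preb by -0.60 ± 0.09 and Tusc3 by -0.56 ± 0.08. Tram2, a relative of the translocon-associated protein Tram1, was the higher gene (1.52 ± 0.39), at about 1 CPM or less in all groups.

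Of 14 regulators of the secretory pathway, 3 were higher and 3 lower in SpdefKO_GC than in WT_GC, beside 10.4% and 11% of all tested genes. Creb3l4, a membrane-bound transcription factor of the Creb3 family, was at 8.49, 9.25, 6.86 and 7.32 CPM in SpdefKO_GC and 199, 191, 205 and 183 CPM in WT_GC, a 24.3-fold lower level without overlap (log2 -4.60 ± 0.19, adjusted p = 3.12e-11). Ern2, the gut form of the stress sensor IRE1, averaged 243 ± 30.7 CPM in SpdefKO_GC and 427 ± 17.4 CPM in WT_GC (-0.81 ± 0.09, adjusted p = 2.21e-06). Creb3l3 was higher (1.92 ± 0.43) at under 1 CPM in both groups. Xbp1, a transcription factor of the unfolded protein response, was at 513 ± 17.6 CPM in SpdefKO_GC and 570.4 ± 40.5 CPM in WT_GC, and its difference did not pass the test (-0.15 ± 0.07, adjusted p = 0.151).

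RefSeq promoter windows were found for 46 of the 56 members, 50 windows in all. The sequence ACGTGG, read on both strands, was in a window of 25 of the 46 members (54.3%), against 13.5% of 9546 tested genes with a window and 8.31% of all 32851 windows of this length. Tested genes higher in WT_GC than in WT_EC held it in 17.8% of cases and those lower in 11.5%. It was in 7 of 10 COPI genes, 8 of 13 COPII genes, 5 of 8 cargo receptors and 5 of 15 translocation genes with a window. The longer UPRE, TGACGTGG, contains it and was in 7 members (15.2%, against 1.07% of tested genes): Arf1, Copb1, Copb2, Kdelr3, Sec16b, Sec23a and Sec24d. In WT_GC against WT_EC, 6 of these 7 were higher, with a median log2 change of 0.97, beside 31% of all tested genes higher. Of the 39 members with a window but no UPRE, 36 were higher, with a median of 1.01. In SpdefKO_GC against WT_GC, 2 of the 7 were higher and 2 lower, and of the 39, 1 was higher and 10 lower. The shares of all tested genes there were 10.4% higher and 11% lower. In SpdefKO_EC against WT_EC, 5 of the 7 and 7 of the 39 were higher, beside 6.09% of all tested genes. Calls of that comparison depended on scaling, and its 14 members higher became 5 with total gene counts. Calls were not counted among all tested genes with a UPRE. The same UPRE lies after the start in Sec23a (from position 7), which was lower in goblet cells. It lies before the start in Kdelr3 (from position -30) and Sec24d (from position -26), which were higher there. The part of the motif and of its position in these changes was not tested. The median GC content of the windows was 59.5% in members and 60.3% in tested genes. Of the 31 ACGTGG matches in member windows, 17 lay within 100 bases before the start. The 2 Arf1 windows overlap, so the same Arf1 site is counted in both, at position -82 and at position 24. CCGGAT, an ETS-type core, was in 9 members (19.6%), against 11.1% of tested genes. TGACGTCA, the CRE (cAMP response element), was in 1 member, Cope, against 3.6% of tested genes, and the ERSE and ERSE-II motifs had no match. These shares describe letters in a window and were given no test.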

How the data were processed

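Per the labels, cells were sorted by mCherry from distal colon, goblet cell RNA was purified on MinElute columns and the remainder on Mini columns, and libraries were made with a stranded total RNA kit after removal of ribosomal RNA and sequenced as paired ends. The authors deposited whole-number read counts per gene symbol. HTSeq 0.6.1p1, DESeq2 1.14, STAR 2.4.0f, FastQC 0.11.2 and build mm10 are listed, per the submitters' processing notes, without a role. The annotation used and the strand option of counting are not stated in the sources held here. A deposited normalized table was not used. The 3 entries that name no gene held 47.1 to 54.7% of counts and were left out.

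Counts were tested with edgeR 4.0.16 (quasi-likelihood, robust, TMM, filterByExpr by group; limma 3.58.1, R 4.3.3) in 1 model of 16 libraries with a coefficient per group, tested on simulated data. Adjusted p-values are Benjamini-Hochberg over 12915 genes, with a threshold of 0.05; rose, fell, higher, lower and called mean past it. The ± after a log2 change is an approximate standard error, the change divided by the square root of F. CPM values are TMM-scaled. The biological coefficient of variation was 11.7%. Pair ratios used log2(CPM + 0.5). Positions and exon lengths are from GENCODE on GRCm38. DESeq2 1.42.0 and limma-voom were alternatives. Library numbers are those of the labels; whether replicates are separate animals is not stated, so the p-values cover library-to-library spread, which may be technical. Libraries with adjacent numbers (1 of each fraction) deviated together, so an edgeR fit with these pairs as a block was added after the data were seen. Library pairs within a group differed beyond sampling noise (4.33 to 32.5 chi-square units for each degree of freedom). The members, gene lists and pairs were chosen with earlier results of these data known. Genes were named by rule: every member called in a genotype comparison or the interaction, the 3 largest and 2 smallest goblet cell changes per role, members lower or not called in goblet cells, pairs past the threshold, and other pathway genes changed by at least 0.5 (log2) between goblet cells; some further members were named to complete a family, after their values were seen.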

Additional observations from a re-analysis of the deposited data

Results flagged for a closer look

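A library stood far from the other 3 of its group in 10 of 224 group values, about the share that chance gives (1 in 20). They were the lowest value of Sec62 (186 CPM) in WT_GC library 11, of Tmed10 (157 CPM) in WT_GC library 11, of Ssr1 (153 CPM) and Sar1b (52.4 CPM) in SpdefKO_EC library 6, of Sec24b (32.2 CPM) in SpdefKO_EC library 4 and of Sar1a (177 CPM) in SpdefKO_GC library 5. They were the highest value of Srp14 (47.0 CPM) and Arcn1 (415 CPM) in WT_GC library 13 and of Copb1 (225 CPM) and Copg2 (61.9 CPM) in WT_EC library 14.

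The genotype difference was unequal between goblet cells and the other cells for 18 members by the interaction term of the edgeR model. The log2 difference of differences was -0.97 for Kdelr3, -0.58 for Mcfd2, -0.57 for Copz1, -0.56 for Copb2, -0.52 for Copb1, -0.52 for Sec16a, -0.51 for Spcs1 and -0.48 for Lman1. It was -0.44 for Sec24d, -0.43 for Sec22b, -0.43 for Arf4, -0.41 for Sar1b, -0.40 for Sec62, -0.38 for Kdelr2, -0.38 for Tmed2, -0.37 for Sar1a and -0.34 for Kdelr1. For Sec24b it was 0.53.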

How the results depend on the processing

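The labels do not pair libraries. Taking libraries with adjacent numbers as a replicate block, an alternative chosen after the data were seen, gave 5 members lower in SpdefKO_GC than in SpdefKO_EC (3 without the block, the 2 added being Sec24b and Mcfd2), and 38 negative and 2 positive interactions (17 and 1 without it); it changed no other call of a member. Each of the 16 libraries correlated best, in its deviation from the group mean, with its adjacent number among the same-genotype libraries of the other fraction, a hint from the data and not the design. The genotype comparisons within a fraction cannot use the block, because each pair lies within 1 genotype. For the pair ratios, an exact paired test of 4 library pairs cannot go below p = 0.125, so none was run. No called value reversed under any alternative. Leaving out 1 library at a time gave 4 to 12 members lower and 1 to 4 higher for SpdefKO_GC against WT_GC, 51 to 52 higher and 2 lower for WT_GC against WT_EC, 50 to 51 higher and 3 to 4 lower for SpdefKO_GC against SpdefKO_EC, 5 to 20 higher and 0 lower for SpdefKO_EC against WT_EC, and 11 to 21 negative and 1 positive for the interaction. The 14 members higher in SpdefKO_EC became 9 with upper-quartile scaling, 5 with total gene counts and 7 with only the groups compared in the fit. The 17 negative interactions became 11 with total gene counts. A test against a bound of 1.5-fold left 0 members in SpdefKO_GC against WT_GC, in SpdefKO_EC against WT_EC and in the interaction, 38 higher and 1 lower in WT_GC against WT_EC, and 29 higher and 1 lower in SpdefKO_GC against SpdefKO_EC. DESeq2 gave 4 higher and 14 lower in SpdefKO_GC against WT_GC, 17 higher in SpdefKO_EC, and 22 negative interactions and 1 positive. All 30 pair tests passed with pseudocounts of 0.1 and 2.

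Total gene counts moved the median of all genes in SpdefKO_GC against SpdefKO_EC to 0.16 and upper-quartile scaling to 0.15, against 0.03. All-gene calls there were 3619 higher and 3666 lower, 4848 and 2982 with total gene counts, and 4752 and 3047 with upper-quartile scaling. For WT_GC against WT_EC they were 4007 and 3894, 4739 and 3482 with total gene counts, and 4859 and 3457 with upper-quartile scaling. For SpdefKO_EC against WT_EC they were 787 and 844, 520 and 1074 with total gene counts, and 533 and 1079 with upper-quartile scaling. Interaction calls were 630 positive and 601 negative, 810 and 410 with total gene counts, and 715 and 479 with upper-quartile scaling. With total-count CPM the summed level of COPII genes was 1807 in SpdefKO_GC, 1952 in WT_GC and 1167 in SpdefKO_EC, that of COPI genes 3463, 3718 and 2150.4 in the same groups, and that of translocation genes 1789 in SpdefKO_EC. The cause of these shifts was not tested. Depth limits the values of Copz2 in the mCherry-negative cells, at 3 to 17 counts per library.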
